A study of Mus musculus with 6 samples.

Results

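E proteins, Id proteins and related basic helix-loop-helix (bHLH) factors were followed in a mouse progenitor line given EBF1 or Pax5. The group was defined by name, as the probe sets whose symbol in the deposited fold-change table is Tcf3, Tcf4, Tcf12, Id1, Id2, Id3, Lyl1, Tal1, Bhlha15 or Bhlhe40. The rule itself uses no measured value, though the members were chosen with earlier results of these data known. All 10 members were found, each with 1 of the 28350 probe sets of the array. Expression was measured on 6 Affymetrix arrays in 3 groups of 2. EBF1 cells carried the MigY-EBF1 retrovirus, Pax5 cells carried the MigR-Pax5 retrovirus, and Control cells carried the MigR1 retrovirus without either factor. By these names the EBF1 vector differs from that of the other groups, and no group carried MigY without EBF1. In comparisons with EBF1 cells, the factor and its vector therefore cannot be told apart. All 3 groups came from 1 Ebf1-/- pre-pro-B cell line, so every group lacks the endogenous Ebf1 gene product. The line was kept on OP9 stromal cells, a bone marrow stromal line, with stem cell factor, FLT3 ligand and IL-7, each at 10 ng/ml. Transduced cells were sorted and RNA was taken at 24 hours after transduction. The labels number the arrays 1 and 2 within a group and do not say whether they came from separate transductions, so the p-values reflect only how far these arrays spread, and that spread may be technical.

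E proteins are bHLH transcription factors that pair through their helix-loop-helix segments and bind a short DNA motif, the E-box, through the basic segment next to it. Id proteins have the helix-loop-helix segment without the basic one, so they pair with E proteins and keep them off DNA. In lymphoid progenitors E proteins are needed for the B-cell program and act upstream of and together with EBF1, while Id2 is known from innate lymphoid cells. Lyl1 and Tal1 are bHLH factors of blood stem and progenitor cells that pair with E proteins. Bhlha15 (also called Mist1) is a bHLH factor of secretory cells and plasma cells, and Bhlhe40 is a bHLH repressor that responds to many stimuli and acts on the circadian clock.

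Promoter windows were taken from RefSeq (build GRCm38.p6), and those of some members are shown. No window was found for Bhlhe40, Id1 and Tcf4, so Bhlhe40 is not shown although it was called. Each window is 300 bases long, from 250 bases before the gene's start to 50 after it, printed 5′ to 3′ on the gene's strand, and capitals mark matches to the E-box CANNTG. Bhlha15 is shown because it changed most, Tcf12 and Id2 because they differed between EBF1 and Pax5 cells, and Tcf3 because its values lay higher in both EBF1 and Pax5 cells. The windows are chr5:144190036-144190335 on the plus strand for Bhlha15, chr9:72111770-72112069 on the minus strand for Tcf12 (the most upstream of its 3 windows), chr12:25096043-25096342 on the minus strand for Id2 and chr10:80433586-80433885 on the minus strand for Tcf3.
Bhlha15: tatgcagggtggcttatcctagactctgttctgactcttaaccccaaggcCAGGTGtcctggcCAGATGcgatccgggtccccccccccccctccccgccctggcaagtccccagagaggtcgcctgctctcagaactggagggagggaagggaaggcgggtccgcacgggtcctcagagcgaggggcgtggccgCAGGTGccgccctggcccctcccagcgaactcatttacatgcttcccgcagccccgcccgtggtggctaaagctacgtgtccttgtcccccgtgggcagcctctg
Tcf12: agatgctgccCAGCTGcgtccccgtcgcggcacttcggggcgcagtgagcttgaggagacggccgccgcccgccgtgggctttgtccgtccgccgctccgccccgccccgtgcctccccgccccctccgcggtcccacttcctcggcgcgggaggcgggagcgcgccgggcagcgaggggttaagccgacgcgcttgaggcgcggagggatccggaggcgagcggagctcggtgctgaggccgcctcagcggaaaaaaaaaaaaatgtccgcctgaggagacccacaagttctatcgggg
Id2: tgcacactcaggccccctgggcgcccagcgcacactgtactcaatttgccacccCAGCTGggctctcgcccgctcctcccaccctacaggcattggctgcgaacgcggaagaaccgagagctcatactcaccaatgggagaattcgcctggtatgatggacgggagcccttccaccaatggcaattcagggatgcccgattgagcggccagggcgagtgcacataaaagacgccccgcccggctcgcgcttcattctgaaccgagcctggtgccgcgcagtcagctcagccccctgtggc
Tcf3: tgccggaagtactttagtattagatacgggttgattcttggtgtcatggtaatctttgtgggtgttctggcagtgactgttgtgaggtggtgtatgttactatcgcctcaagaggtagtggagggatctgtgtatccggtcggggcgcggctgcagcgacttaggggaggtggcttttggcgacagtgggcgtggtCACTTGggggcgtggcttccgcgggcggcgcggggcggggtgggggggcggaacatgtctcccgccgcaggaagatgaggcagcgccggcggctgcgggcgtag

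The Bhlha15 window holds 3 E-boxes, 2 of them CAGGTG and 1 CAGATG, which begin 200, 187 and 55 bases before the start. The Id2 window and the upstream Tcf12 window hold 1 CAGCTG each, and the Tcf3 window holds 1 CACTTG, which begins 54 bases before the start. Windows were found for 7 members, 10 windows in all, and 8 of these held CANNTG, against 72.3% of all 32851 windows in the table. The narrower letters CAGCTG, which CANNTG includes, were in 2 of the 10, against 16.3% of all windows. The letters of the EBF1 motif, TCCC and GGGA with any 2 bases between them, were in 0 of the 10, against 0.904% of all windows. Both strands were searched, since these letters read the same on either strand. A match is a description and not a bound site, and these windows cover only the bases next to the start.

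Levels are given on the log2 scale of RMA, which corrects background, normalizes across arrays and summarises each probe set, and 1 unit is a change of 2-fold. Differences were tested with limma over 15295 genes, and a difference was called where its Benjamini-Hochberg adjusted p was under 0.05. All 3 groups share 1 estimate of the spread. Leaving out an array of the group not compared thus leaves a log2 difference as it was. Only the estimate of the spread changes, and a call that ends there does not rest on the values of that array. The array medians lay between 4.06 and 4.17. The arrays of a group correlated across probe sets at r = 0.9976 for EBF1, 0.9923 for Pax5 and 0.9979 for Control, and the SD of the difference between them over the tested genes was 0.161, 0.263 and 0.152 in the same order. On the probe set with the highest mean, the transduced genes followed the labels. Pax5 read 11.42 and 11.33 in Pax5 cells, 6.01 and 6.17 in EBF1 cells, and 4.93 and 5.10 in Control cells. It was thus also called higher in EBF1 than in Control cells (log2 difference 1.07, limma adjusted p = 0.0043). That call did not hold whichever array was left out. Ebf1 read 9.88 and 9.96 in EBF1 cells, 8.92 and 8.87 in Pax5 cells, and 8.87 on each Control array. The mean of all Ebf1 probe sets was instead called lower in EBF1 than in Pax5 cells (log2 difference -0.35). The order of EBF1 and Pax5 cells and the size of the Ebf1 difference thus rest on 1 probe set. Against Control, Ebf1 stayed higher in EBF1 cells under every alternative run, by 0.31 on the log2 scale at the least. Whether the Ebf1 probe set lies in the deleted stretch was not analysed here, and the Ebf1 values of Control cells are no check of the deletion. Markers of lymphoid progenitors were present, with Control means of 9.83 for Ptprc, 10.04 for Flt3 and 9.84 for Il7r. Of 12 such markers, 1 rose and 6 fell with EBF1 and 0 rose and 5 fell with Pax5. Over all tested genes 5.6% were called with EBF1 and 4.22% with Pax5. The summed unlogged level of the 12 markers was 4858 and 4668 in EBF1 cells, 5295 and 5199 in Pax5 cells, and 6153 and 6063 in Control cells. Il7r was among those called lower in both (-0.39 and -0.79 on the log2 scale), calls that ended without either Control array (adjusted p up to 0.25 and 0.075) and, for EBF1, without either EBF1 array. The part of this shift in the results that follow was not tested. Of 10 mast cell and basophil markers, 3 passed the filter on dim genes.

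Bhlha15 showed the largest change of the 10 genes. It read 7.51 and 7.59 in EBF1 cells, 4.36 and 4.59 in Pax5 cells, and 4.39 and 4.22 in Control cells. Both EBF1 arrays stood far above all others, and the Pax5 and Control values overlapped. The measured values of Bhlha15 rose 9.47-fold with EBF1 (log2 difference 3.24, SE 0.11, limma adjusted p = 0.00024), which ranked 6 by size and 3 by p-value among the 15295 genes. Set against Pax5 cells, the EBF1 cells were 8.44-fold higher (log2 difference 3.08, SE 0.11, adjusted p = 0.00016). Between Pax5 and Control cells the log2 difference was 0.17, with a 95% interval of -0.10 to 0.44 (adjusted p = 0.44). The rise with EBF1 passed under each of the 15 alternatives run, with adjusted p-values up to 0.034. In the authors' deposited table the step-up adjusted p-value of Bhlha15 was 0.0567 for EBF1 against Control and 0.0349 for the contrast of EBF1 and Pax5 cells. The Pax5 and Control values of Bhlha15 lay close to the array medians, where a signal cannot be told from background here, so both folds are of measured values, may understate the difference and rank only as such.

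Bhlhe40 was the other member that changed with EBF1. Its values were 8.64 and 8.52 in EBF1 cells, 7.26 and 7.23 in Pax5 cells, and 7.60 and 7.73 in Control cells. The groups did not overlap, with EBF1 arrays highest and Pax5 arrays lowest. Bhlhe40 rose 1.88-fold with EBF1 (log2 difference 0.91, SE 0.09, limma adjusted p = 0.0044), and it missed the threshold without Control 1 (adjusted p = 0.064) and without EBF1 1 (adjusted p = 0.063). The log2 difference between Pax5 and Control cells was -0.42 (SE 0.09), short of the threshold at an adjusted p of 0.057. It passed without Pax5 1 (adjusted p = 0.047). EBF1 cells were 2.52-fold higher than Pax5 cells (log2 difference 1.33, SE 0.09, adjusted p = 0.00075), a difference that passed whichever array was left out. In the authors' deposited table the step-up adjusted p-value of Bhlhe40 was 0.0983 for EBF1 against Control and 0.0399 for the contrast of EBF1 and Pax5 cells.

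**Figure D1:**
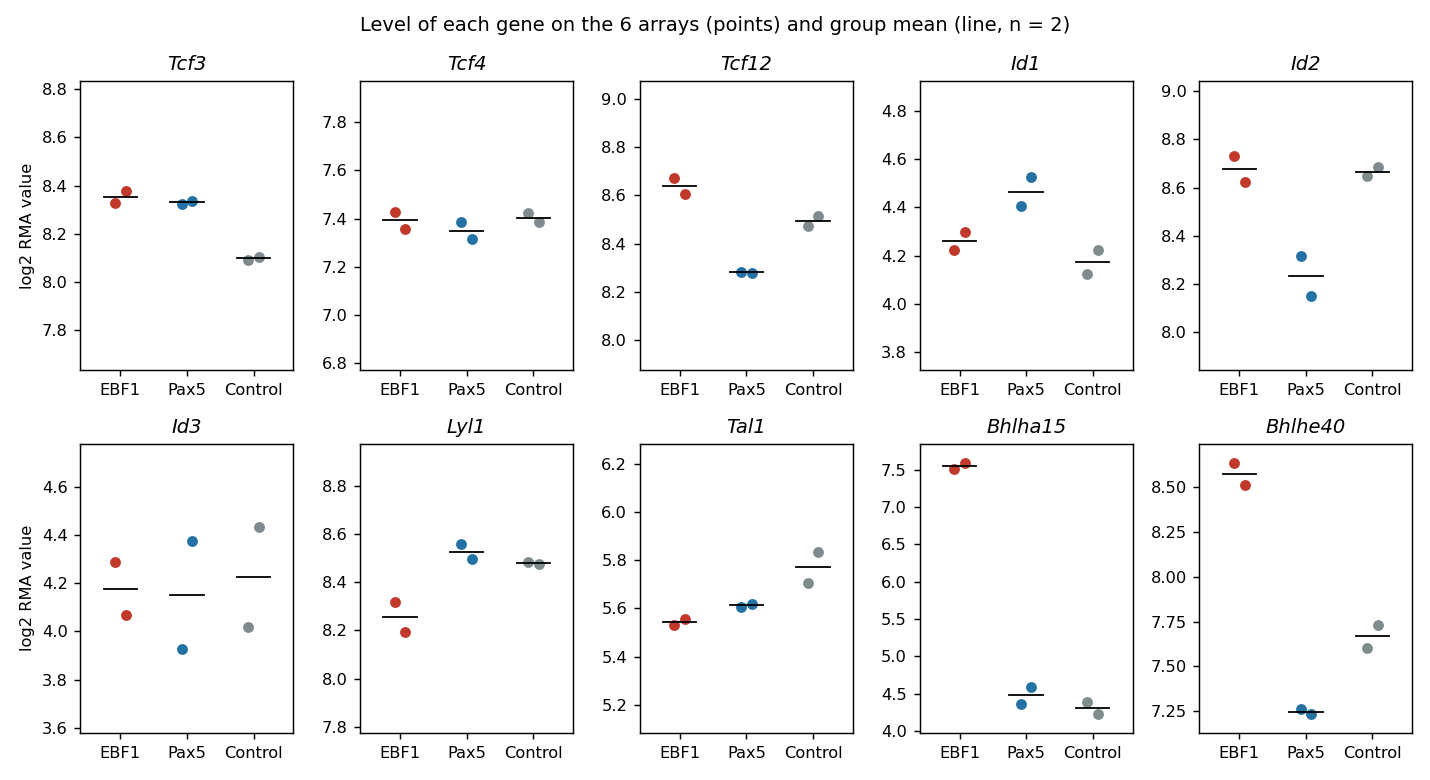
Level of each of the 10 genes as log2 RMA values (vertical axes, each with its own range) in EBF1, Pax5 and Control cells, with 1 point per array and a line at the mean of the 2 arrays. Bhlha15 lies at 7.51 and 7.59 in EBF1 cells and below 4.60 on every other array, and Bhlhe40 is highest in EBF1 cells and lowest in Pax5 cells.

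The 3 E protein genes differed little from Control. Tcf3, the main E protein of B-cell progenitors, read 8.33 and 8.38 in EBF1 cells, 8.32 and 8.34 in Pax5 cells, and 8.09 and 8.11 in Control cells. All 4 arrays with a transduced factor lay above both Control arrays, and the EBF1 and Pax5 values overlapped. The Tcf3 log2 difference was 0.25 with EBF1 (95% interval 0.08 to 0.43, adjusted p = 0.11) and 0.23 with Pax5 (95% interval 0.06 to 0.41, adjusted p = 0.15). Neither passed over all genes, though both did with a trended, robust variance (adjusted p = 0.015 with EBF1 and 0.026 with Pax5), and both comparisons share the Control arrays. Between EBF1 and Pax5 cells the Tcf3 difference was 0.02, with an interval of -0.15 to 0.20.

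Tcf12, which encodes the E protein HEB, separated the EBF1 and Pax5 cells. It read 8.67 and 8.61 in EBF1 cells, 8.28 and 8.28 in Pax5 cells, and 8.47 and 8.51 in Control cells. The Control arrays lay between the others with no overlap. Tcf12 was 1.28-fold higher in EBF1 than in Pax5 cells (log2 difference 0.36, SE 0.07, limma adjusted p = 0.027). Neither difference from Control passed, at 0.15 in EBF1 cells (95% interval -0.03 to 0.32, adjusted p = 0.35) and -0.21 in Pax5 cells (95% interval -0.39 to -0.03, adjusted p = 0.19). The EBF1 against Pax5 call held without Pax5 1 and ended without any other array, with adjusted p-values of 0.053 without Pax5 2, 0.078 without either Control array, 0.17 without EBF1 1 and 0.12 without EBF1 2. Leaving out a Control array left this difference as it was and changed only the estimate of the spread. The authors' deposited table gives Tcf12 a step-up adjusted p-value of 0.0628 in this contrast. Their p-values, adjusted over the 15295 genes tested here, gave 0.041.

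Tcf4, an E protein gene known for its part in plasmacytoid dendritic cells, gave 7.43 and 7.36 in EBF1 cells, 7.39 and 7.32 in Pax5 cells, and 7.42 and 7.38 in Control cells. All 3 groups overlapped. The 95% intervals of the ratio were 0.87 to 1.13 for EBF1 over Control and 0.85 to 1.10 for Pax5 over Control, with adjusted p-values of 0.96 and 0.73.

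Among the Id genes, Id2 was lower in Pax5 than in EBF1 cells. Its values were 8.73 and 8.62 in EBF1 cells, 8.32 and 8.15 in Pax5 cells, and 8.65 and 8.69 in Control cells. Both Pax5 arrays lay below all the others, and the EBF1 and Control values overlapped. Id2 was 1.36-fold higher in EBF1 than in Pax5 cells (log2 difference 0.44, SE 0.09, limma adjusted p = 0.028). Against Control the log2 difference was -0.43 with Pax5 (adjusted p = 0.061) and 0.01 with EBF1 (95% interval -0.21 to 0.23). Without Pax5 1 the difference between Pax5 and Control cells passed (-0.52, adjusted p = 0.025). The EBF1 against Pax5 call also held without Pax5 1 and ended without any other array, with adjusted p-values of 0.063 without Pax5 2, 0.075 without either Control array, 0.17 without EBF1 1 and 0.10 without EBF1 2. Leaving out a Control array left this difference as it was and changed only the estimate of the spread. The authors' deposited table gives Id2 a step-up adjusted p-value of 0.149 in this contrast.

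Id1 and Id3, the other Id genes of this set, lay near the array medians. Id1 read 4.22 and 4.30 in EBF1 cells, 4.40 and 4.53 in Pax5 cells, and 4.12 and 4.22 in Control cells. Its Pax5 values were above all others, but the log2 difference of 0.29 from Control (95% interval 0.08 to 0.50) did not pass (adjusted p = 0.14). Id3, a target of E proteins and of antigen receptor signalling in lymphocytes, gave 4.29 and 4.07 in EBF1 cells, 3.93 and 4.38 in Pax5 cells, and 4.02 and 4.43 in Control cells. All groups overlapped, and the gap between the 2 arrays of a group was up to 0.45. The interval for EBF1 against Control ran from -0.53 to 0.43, the widest of the 10 genes.

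The stem-cell factors Lyl1 and Tal1 were lowest in EBF1 cells. Lyl1 gave 8.32 and 8.19 in EBF1 cells, 8.56 and 8.50 in Pax5 cells, and 8.49 and 8.48 in Control cells. Tal1 gave 5.53 and 5.56 in EBF1 cells, 5.61 and 5.62 in Pax5 cells, and 5.71 and 5.84 in Control cells. For both genes the EBF1 arrays lay below all others without overlap. The log2 differences between EBF1 and Control cells were -0.22 for Lyl1 (adjusted p = 0.19) and -0.23 for Tal1 (adjusted p = 0.18), neither of which passed. Lyl1 also missed the threshold against Pax5 cells (-0.27, adjusted p = 0.080). With Pax5, Lyl1 differed from Control by 0.05 (95% interval -0.15 to 0.24) and Tal1 by -0.16 (95% interval -0.35 to 0.04).

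**Figure D2:**
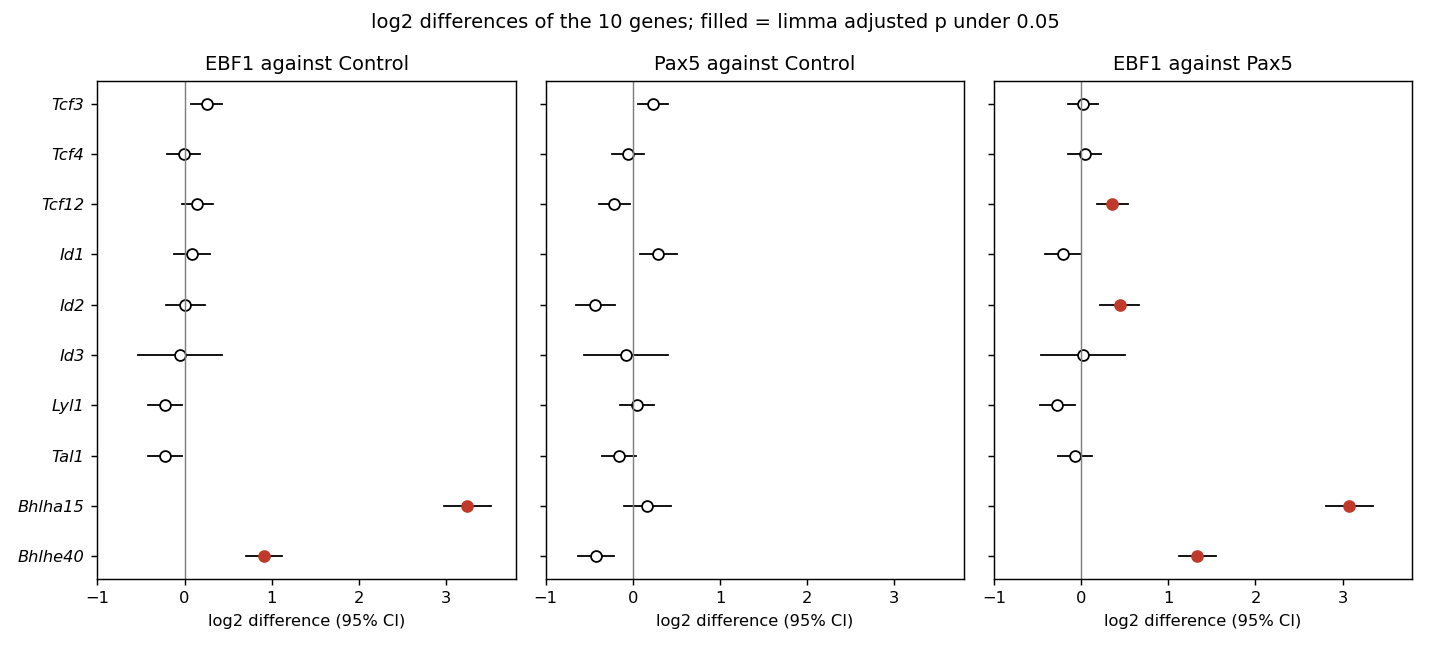
Log2 differences (horizontal axes) of the 10 genes (rows) in EBF1 against Control, Pax5 against Control and EBF1 against Pax5, with 95% confidence intervals from limma; filled points passed an adjusted p of 0.05. Filled points are Bhlha15 (3.24) and Bhlhe40 (0.91) on the left, none in the middle, and Bhlha15, Bhlhe40, Id2 and Tcf12 on the right.

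Over the whole set, 2 of 10 members were called with EBF1, both higher and 0 lower, where 5.6% of all tested genes were called, 3.14% as higher and 2.46% as lower. With Pax5, limma called 0 of 10 members, where 4.22% of all genes were called, 2.16% as higher and 2.06% as lower. At an unadjusted limma p under 0.05, 5 of the 10 passed in each of the 3 comparisons, beside 19.9% of all genes in EBF1 against Control, 20.8% in Pax5 against Control and 29.9% in EBF1 against Pax5 cells. In EBF1 against Pax5 cells 4 of 10 were called, all higher in EBF1 cells, where 13.9% of all genes were called and 8.71% were called higher and 5.2% lower. Leaving out 1 array gave 1 member called with EBF1 (without Control 1 or EBF1 1), 2 with Pax5 (without Pax5 1), and 2 in EBF1 against Pax5 cells without any 1 array other than Pax5 1. The values of the groups compared did not overlap for 6 of 10 members in EBF1 against Control (56% of all genes), 7 of 10 in Pax5 against Control (51.4%) and 7 of 10 in EBF1 against Pax5 cells (56.4%). The median log2 difference of the members was 0.05, -0.06 and 0.03 in these 3 comparisons, beside medians of 0.01, -0.04 and 0.04 over all genes. Both comparisons with Control share the Control arrays, so their counts are not independent.

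**Figure D3:**
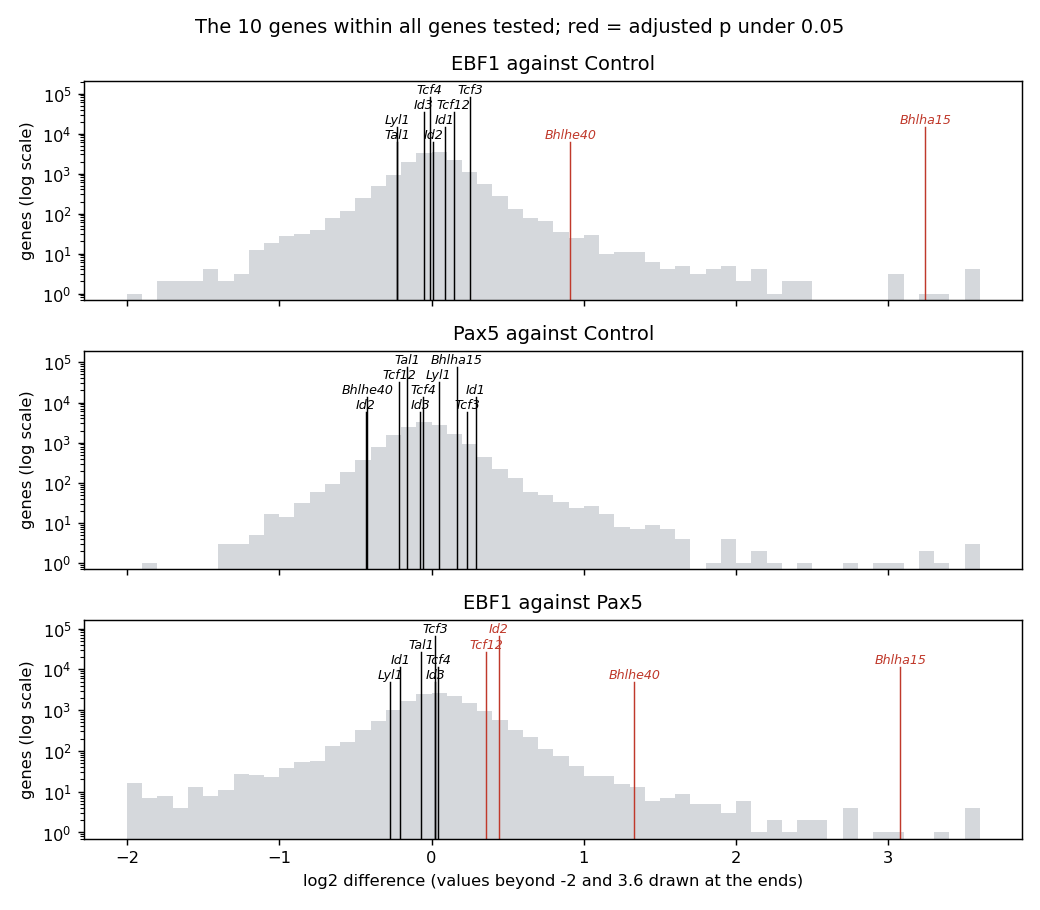
Histograms of the log2 differences of all 15295 tested genes (grey, counts on a log axis) in the 3 comparisons, with a labelled line for each of the 10 genes, red where it passed an adjusted p of 0.05; values beyond the axis are drawn at its ends. Bhlha15 (3.24 and 3.08) lies at the far right in both comparisons with EBF1 on top, and the E protein and Id genes lie within 0.45 of 0 in all 3.

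The genes whose profiles over the 6 arrays lay closest to each called member were picked by the Euclidean distance between log2 values centred on the Control mean. For Bhlha15 these were 4731417B20Rik (distance 0.50), the noncoding RNA gene H19 (0.55) and the granzyme gene Gzma (0.63), against a median distance of 4.60 over all genes. For Bhlhe40 they were Acsl1, an acyl-CoA synthetase gene (0.12), 4631405J19Rik (0.18) and Coro2a (0.22), against a median of 1.44. For Tcf12 they included Snrnp25 (0.04) and Cct3 (0.07), and for Id2 they were Ppm1h (0.05), Mdh1 (0.06) and Asph (0.07). The median distance over all genes was 0.499 for Tcf12 and 0.675 for Id2. Genes picked as the closest lie below the median by that choice, so the medians give only a scale. 4731417B20Rik and Gzma lay below the array medians in Pax5 and Control cells, so their match to Bhlha15 there cannot be told from background.

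Other bHLH genes were read as families. Over all tested genes 5.6% were called with EBF1, 4.22% with Pax5 and 13.9% between EBF1 and Pax5 cells. These shares stand beside the counts of each list that follows, and several of those counts lie near them. Of 31 tested tissue-specific bHLH genes outside the set, 1 fell with EBF1 and 0 of 31 were called with Pax5. The gene that fell was Bhlhe41, the closest relative of Bhlhe40 and also a clock repressor. Bhlhe41 read 4.42 and 4.13 in EBF1 cells, 6.17 and 5.79 in Pax5 cells, and 5.40 and 5.53 in Control cells. It changed by -1.19 with EBF1 (SE 0.16, limma adjusted p = 0.012) and differed by -1.71 between EBF1 and Pax5 cells (adjusted p = 0.0021). By measured values, Bhlhe41 and Bhlhe40 thus lay in opposite order across the groups. In EBF1 cells Bhlhe41 lay near the array medians, where a signal cannot be told from background. The Bhlhe41 call against Control ended without any 1 of the Control or EBF1 arrays (adjusted p up to 0.12), while that against Pax5 cells held whichever array was left out.

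Of 12 tested bHLH-PAS genes, which include the clock activators, 1 rose and 1 fell with EBF1. Arntl, also called Bmal1, rose by 0.61 (SE 0.08, adjusted p = 0.015), with 4.72 and 4.75 in EBF1 cells, 3.93 and 4.07 in Pax5 cells, and 4.15 and 4.10 in Control cells. Its partner Clock changed by -0.43 (SE 0.08, adjusted p = 0.032), with 5.70 and 5.74 in EBF1 cells, 6.05 and 6.04 in Pax5 cells, and 6.20 and 6.10 in Control cells. For both genes the EBF1 arrays stood apart from the rest, and both calls ended without any 1 of the Control or EBF1 arrays, with adjusted p-values up to 0.15 for Arntl and 0.25 for Clock. With Pax5, 0 of 12 were called. The Arntl values of Pax5 and Control cells lay near the array medians, where a signal cannot be told from background.

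Among 8 tested Hes and Hey genes, bHLH repressors that include Notch targets, Hes1 rose by 1.06 with EBF1 (SE 0.10, adjusted p = 0.0045), with 5.23 and 5.14 in EBF1 cells, 4.58 and 4.34 in Pax5 cells, and 4.10 and 4.15 in Control cells. In this family 0 of 8 were called with Pax5. Between EBF1 and Pax5 cells Hes1 was higher (0.73, adjusted p = 0.0081) and Hes6 lower (-0.38, adjusted p = 0.03). Of these calls, that of Hes1 ended without either EBF1 array (up to 0.079) and that of Hes6 without any 1 of the EBF1 or Control arrays (up to 0.18). Of 20 bHLH leucine zipper genes, 1 rose with EBF1 and 2 rose with Pax5, and 0 fell with either. The growth regulator Myc rose by 0.52 with EBF1 (adjusted p = 0.021), with 10.56 and 10.47 in EBF1 cells and 9.99 on both Control arrays. The lysosomal regulator Tfeb rose by 1.00 with Pax5 (adjusted p = 0.011), with 5.73 and 5.98 in Pax5 cells and 4.98 and 4.73 in Control cells. Mxd4, which pairs with the Myc partner Max, rose by 0.43 with Pax5 (adjusted p = 0.035). Between EBF1 and Pax5 cells Myc (0.64, adjusted p = 0.0061) and Tfap4 (0.65, adjusted p = 0.013) were higher and Tfeb (-0.88, adjusted p = 0.0084) and Mxd4 (-0.35, adjusted p = 0.03) lower. Without EBF1 1 all 4 of these missed the threshold (Myc 0.064, Tfap4 0.11, Tfeb 0.080, Mxd4 0.13), and without EBF1 2 all but Myc did (up to 0.17). The Mxd4 call also ended without either Control array (0.083 each). The Hes1 and Myc calls against Control ended without any 1 of the EBF1 or Control arrays, with adjusted p-values up to 0.067 and 0.18. The Tfeb and Mxd4 calls against Control ended without any 1 of the EBF1 or Control arrays, with adjusted p-values up to 0.11 and 0.26, and that of Mxd4 also without Pax5 2 (0.054).

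**Figure D4:**
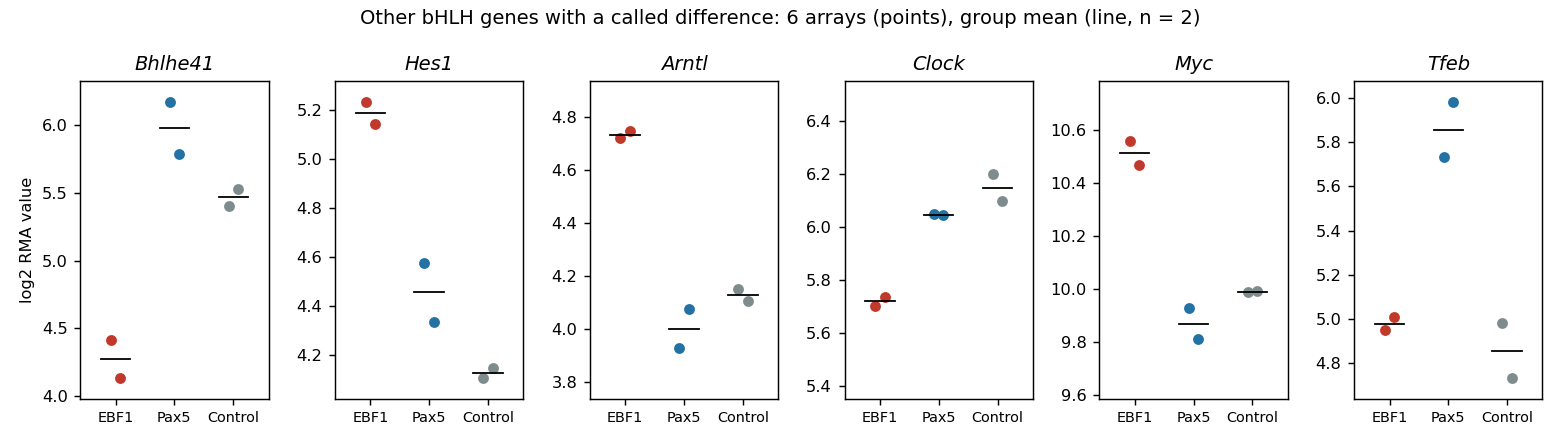
Log2 RMA values (vertical axes, each with its own range) of 6 bHLH genes outside the set with a called difference, in EBF1, Pax5 and Control cells, with 1 point per array and a line at the mean of the 2 arrays. Bhlhe41 and Clock are lowest in EBF1 cells, Hes1, Arntl and Myc are highest there, and Tfeb is highest in Pax5 cells.

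Partners and cofactors of E proteins, Tal1 and Lyl1 moved both ways. Of 19 tested, 1 rose and 2 fell with EBF1, and 1 rose with Pax5. Gata3, a T-cell and innate lymphoid factor, changed by -1.19 with EBF1 (adjusted p = 0.0089), Runx1 by -0.58 (adjusted p = 0.012) and Ssbp3, a partner of the Ldb1 adaptor, by 0.39 (adjusted p = 0.048). Gfi1b, a repressor of blood progenitors, rose by 0.59 with Pax5 (adjusted p = 0.033). All 4 calls against Control ended without any 1 of the EBF1 or Control arrays, with adjusted p-values up to 0.099 for Gata3, 0.14 for Runx1, 0.30 for Ssbp3 and 0.24 for Gfi1b. The Runx1 difference between EBF1 and Pax5 cells (-0.92, adjusted p = 0.0015) held whichever array was left out.

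Genes known as E protein targets in lymphoid progenitors, a list that also holds Id3, EBF1 and Pax5 targets and the transduced genes themselves, had 33 tested members. With EBF1, 10 rose and 3 fell (39.4% called, beside 5.6% of all tested genes). With Pax5, 12 rose and 5 fell (51.5% called, beside 4.22%). The medians were 0.13 and 0.11. Among those that rose was the surrogate light chain gene Igll1, by 5.44 on the log2 scale with EBF1 and 2.70 with Pax5. Dntt, the gene of terminal transferase, changed by -1.75 with EBF1 (limma adjusted p = 0.0022) and -1.27 with Pax5 (adjusted p = 0.0057). The EBF1 call of Dntt held whichever array was left out, and its Pax5 call did not. The genes of the E proteins differed from Control by at most 0.25 in either direction in the same cells.

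Signals that act on Id genes were read from 25 tested BMP, TGF-beta and Egr genes. With EBF1, 1 rose, Tgfb1 (1.03, SE 0.08, adjusted p = 0.0023), which read 9.03 and 8.95 in EBF1 cells and 7.99 and 7.94 in Control cells. With Pax5, the ligand gene Tgfb3 rose (1.03, adjusted p = 0.0038) and the receptor genes Bmpr2 (-0.64, adjusted p = 0.028) and Tgfbr1 (-0.62, adjusted p = 0.011) fell. The Tgfb1 call held whichever array was left out. The Tgfb3 call ended without Control 1 (adjusted p = 0.052), the Tgfbr1 call without either Control array (0.12 each), and the Bmpr2 call without any 1 of the Control or EBF1 arrays (up to 0.22).

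Secretory genes linked to Bhlha15 in other tissues were read next. Of 14 tested, 0 were called higher and 1 lower with EBF1, namely Ern1, a sensor of unfolded proteins (-0.53, adjusted p = 0.014), with a median of 0.07. With Pax5, 0 rose and 3 fell, the chaperone gene Hspa5 (-0.54), Xbp1 (-0.53) and Ern1 (-0.50). Between EBF1 and Pax5 cells 5 were higher and 1 lower in EBF1 cells (42.9% called, beside 13.9% of all tested genes). Hspa5 (0.61) and Herpud1 (0.47) led those that were higher. None of these 6 calls between EBF1 and Pax5 cells held whichever array was left out. The Ern1, Xbp1 and Hspa5 calls against Control ended without any 1 of the Control or EBF1 arrays, with adjusted p-values up to 0.19, 0.17 and 0.20, and that of Hspa5 also without Pax5 2 (0.058).

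Bhlha15 is also a plasma cell gene. Of 10 tested plasma cell markers 1 rose and 0 fell with EBF1, 2 rose and 3 fell with Pax5, and 4 were higher and 1 lower in EBF1 than in Pax5 cells. Mzb1 rose by 2.15 with EBF1 (adjusted p = 0.0003) and by 1.54 with Pax5 (adjusted p = 0.0012). Both Mzb1 calls against Control held whichever array was left out. The summed unlogged level of the 10 was 2871 and 2904 in EBF1 cells, 2584 and 2598 in Pax5 cells and 2936 and 3106 in Control cells. OP9 stromal markers summed to 1141 and 1140 in EBF1 cells, 952 and 1087 in Pax5 cells and 905 and 889 in Control cells over 14 tested genes. With EBF1, 1 of these 14 rose, Bgn (0.62, adjusted p = 0.017), a call that ended without any 1 of the EBF1 or Control arrays (up to 0.16), and the part of stromal RNA in the results above was not tested. Fewer cells of a type and less RNA per cell cannot be told apart in these bulk samples.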

How the data were processed

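RNA of transduced, sorted cells was amplified from 50 ng of total RNA with the NuGEN Ovation Pico WTA system and hybridised to Affymetrix arrays, per the labels' protocols. The deposited log2 values were made by the authors with RMA in Partek 6.5, per the submitters' processing notes. The sources used here give no RMA options, annotation version or genome build. The deposited p-values and step-up adjusted p-values, made by the authors for their own comparisons, were used only as an alternative and where named.

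From the log2 values, limma 3.58.1 in R 4.3.3 was fitted to all 6 arrays with the group as the only factor (3 residual and 3.18 prior degrees of freedom), on the probe set with the highest mean per symbol. Genes were kept where 2 or more arrays read above their own 30th percentile, which left 15295 genes and all 10 members. P-values are two-sided and Benjamini-Hochberg adjusted over all 15295. Of 28350 probe sets, 22969 have 1 symbol, 2285 several and 3096 none, and only the first kind was named. The number of arrays limits the precision, and without a detection call a value near the array median cannot be told from background.

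All members were reported. The other genes named were taken, not exhaustively, from those of each gene list called in at least 1 comparison (at most the 5 with the largest difference), and for each called member the 3 genes with the most similar profile, of which 1 for Tcf12 is not reported here. The members and lists were chosen with earlier results of these data known, so no list was given a test. The fit was tested on simulated data. Other normalizations, filters and variance settings, the replicate number as a block, and leaving out each array were tried. Promoter windows come from RefSeq (GRCm38.p6).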

Additional observations from a re-analysis of the deposited data

How the results depend on the processing

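Over 15 alternatives, the 30 log2 differences of the 10 members gave 450 values, of which 420 stayed on their side of the threshold, 17 lost and 13 gained a call, and 0 changed direction while called. These values are not all separate checks. Leaving out an array of the group not compared gave the same fit as only the 4 arrays compared. Each member has 1 probe set, so the mean over probe sets left its difference as it was. With the filter at the 50th percentile, limma called 1324 genes with EBF1 and 1000 with Pax5 (857 and 646 as reported). There limma also called 2 members with Pax5, Id2 and Bhlhe40. With a trended, robust variance it called 1786, 1643 and 3369 genes in EBF1 against Control, Pax5 against Control and EBF1 against Pax5 cells (857, 646 and 2128 as reported), and 4 members in each comparison with Control. With only the 4 arrays compared, the counts were 1424, 240 and 1093, and 2 members were called in EBF1 against Pax5 cells. The authors' deposited p-values, adjusted over the same genes, called 197, 100 and 712 genes. They called 1 member with EBF1, 0 with Pax5 and 3 in EBF1 against Pax5 cells, Tcf12 among these. Without 1 array the counts ran from 103 to 1424 genes and 1 to 2 members with EBF1, from 60 to 2407 and 0 to 2 with Pax5, and from 410 to 3884 and 2 to 4 in EBF1 against Pax5 cells, the highest Pax5 counts without Pax5 1. Lyl1 passed as lower in EBF1 than in Pax5 cells after repeated quantile normalization (-0.33, adjusted p = 0.045), with the 50th percentile filter (0.041) and with the trended, robust variance (0.0096). Under the last, Tcf3 and Lyl1 were gained with EBF1, and Tcf3, Tcf12, Id2 and Bhlhe40 with Pax5. The split of higher and lower calls moved too: in EBF1 against Pax5 cells it was 1067 and 941 after quantile normalization (1332 and 796 as reported), and in Pax5 against Control 615 and 1028 with the trended, robust variance and 864 and 1543 without Pax5 1 (331 and 315 as reported). Ebf1, as the mean of its probe sets, reversed to -0.35 in EBF1 against Pax5 cells and was called in that direction. The cause was not tested.

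With the replicate number as a block, limma called 565 genes with EBF1 and 412 with Pax5, and the Tcf12 difference between EBF1 and Pax5 cells missed the threshold (adjusted p = 0.052). The labels give the numbers no meaning beyond a name. The differences between arrays 1 and 2 correlated at 0.00936 (EBF1 and Control), 0.00703 (Pax5 and Control) and -0.0115 (EBF1 and Pax5) across genes. They thus showed no effect shared by arrays of the same number. This cannot decide whether a number marks a shared transduction, since a shared transduction need not leave such an effect. Each group has 2 arrays, which limits every interval given. A signal near the array median, as for Id1 and Id3, cannot be told from background here. The same holds for Arntl and Hes1 in Pax5 and Control cells, Bhlhe41 and Gata3 in EBF1 cells, and Mzb1 in Control cells.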
